A study of Mus musculus with 10 samples.

Results

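Genes of the Notch pathway were followed in macrophages sorted from 4T1 tumours. The genes were the receptors Notch1, Notch2 and Notch4, the ligands Jag1, Jag2 and Dll4, the DNA-binding factor Rbpj, and the targets Hes1 and Hey1. These 9 genes were taken by exact gene name from raw read counts for 46603 genes. They were selected on their place in the pathway with the read counts of PoEMs and non-PoEMs in these same libraries already known. Their levels and the number that passed a test are therefore a description, and each adjusted p was taken over all genes tested. 4T1 cells derive from a mouse breast carcinoma and grow as tumours in mice. PoEMs, podoplanin-expressing macrophages, were sorted as CD11B+, F4/80+ and PDPN+, and non-PoEMs as CD11B+, F4/80+ and PDPN-. CD11B and F4/80 are surface markers of mouse macrophages, and PDPN is podoplanin, a membrane glycoprotein. Tumours 1, 2, 4, 5 and 6 each gave 1 library of either fraction, so that 5 PoEM libraries were set against 5 non-PoEM libraries. The labels do not say whether each tumour came from a separate mouse, and they name no genotype, strain, age or treatment.

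Library totals ran from 13319377 to 14883770 counts in PoEMs and from 12597829 to 15406722 counts in non-PoEMs. Levels are given as CPM, counts scaled to a common library size, with TMM as the estimate of relative library size. Pdpn measured 214.5 ± 22.9 CPM in PoEMs and 19.3 ± 7.33 CPM in non-PoEMs (SD, n = 5 each), which followed the sort. Among all genes tested 6.83% were called higher and 6.77% lower in PoEMs by edgeR, and 13.8% and 14.3% with tumour as a block. Of 9 macrophage marker genes 1 was higher and 1 lower in PoEMs (3 and 2 with tumour as a block), and their summed level ran from 14520 to 16100 CPM in PoEMs and from 14220 to 15960 CPM in non-PoEMs. The lower one was Csf1r, the receptor of the macrophage growth factor CSF1, at 2405 ± 226 CPM in PoEMs and 2849 ± 133 CPM in non-PoEMs (edgeR adjusted p = 0.0493, or 0.00485 with tumour as a block). Without the block its call was lost when any of 8 libraries was left out, with an adjusted p of up to 0.111.

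Notch receptors are membrane proteins that are cleaved when a ligand on a neighbouring cell binds them. The released intracellular part enters the nucleus, joins RBPJ on DNA and, with a Mastermind coactivator, turns on genes such as HES and HEY repressors. JAG and DLL proteins are the ligands. In macrophages Notch signals are best known for their part in differentiation and inflammatory activation, and NOTCH4 and DLL4 are best known from blood vessel endothelium.

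The promoters of Notch4 and Jag1 are shown because these genes were higher in PoEMs, and that of Rbpj because its protein is the DNA-binding partner of all Notch receptors. Each window of 300 bases holds 250 bases before and 50 bases after the RefSeq start (GRCm38.p6, gene strand, 5′ to 3′). Capitals mark the RBPJ core motif TGGGAA and the AP-1 motif TGANTCA, on either strand. The windows lie at chr17:34564045-34564344 on the plus strand for Notch4, chr2:137116471-137116770 on the minus strand for Jag1 and chr5:53590096-53590395 on the plus strand for Rbpj. The Rbpj gene as annotated begins at 53466152, so its window belongs to a RefSeq start inside the annotated gene.
Notch4: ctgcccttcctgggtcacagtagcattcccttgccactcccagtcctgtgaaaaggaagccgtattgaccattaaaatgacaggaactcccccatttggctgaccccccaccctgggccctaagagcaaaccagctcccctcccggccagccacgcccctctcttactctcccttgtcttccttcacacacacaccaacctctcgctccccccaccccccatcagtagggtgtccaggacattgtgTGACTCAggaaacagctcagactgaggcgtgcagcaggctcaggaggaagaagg
Jag1: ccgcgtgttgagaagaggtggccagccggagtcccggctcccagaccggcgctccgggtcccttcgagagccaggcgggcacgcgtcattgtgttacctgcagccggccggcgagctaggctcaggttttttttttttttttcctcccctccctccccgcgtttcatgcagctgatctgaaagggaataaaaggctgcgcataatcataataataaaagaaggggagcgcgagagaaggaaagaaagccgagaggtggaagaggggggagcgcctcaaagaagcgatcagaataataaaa
Rbpj: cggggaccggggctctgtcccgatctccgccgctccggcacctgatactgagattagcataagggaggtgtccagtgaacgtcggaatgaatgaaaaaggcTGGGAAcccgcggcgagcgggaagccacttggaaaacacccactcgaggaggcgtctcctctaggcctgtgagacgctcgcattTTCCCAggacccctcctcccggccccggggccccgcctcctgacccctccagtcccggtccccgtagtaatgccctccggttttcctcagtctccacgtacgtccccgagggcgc
The Notch4 window held 1 AP-1 motif, which began 4 bases before the start, and no RBPJ motif. The Jag1 window held neither. The Rbpj window held 2 RBPJ motifs, 1 on each strand, beginning at -149 and -65. A second RefSeq window of Rbpj, not printed, overlaps the first. Its 1 motif, at -205 from its own start, is the same site as the one at -65. Among all 32544 RefSeq windows of this length, 25.4% held the RBPJ motif and 7.79% the AP-1 motif. Windows were found for 7 of the 9 genes; Hes1 and Hey1 had none in the table used.

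In PoEMs Notch4 and Jag1 were higher and Notch2 was lower, while Notch1, Jag2, Rbpj and Hes1 did not pass the test and Dll4 and Hey1 had too few reads for it. The test was edgeR's quasi-likelihood test with Benjamini-Hochberg adjustment over 13595 genes and a threshold of 0.05. This fit did not use the pairing of the fractions by tumour, whereas the fit with tumour as a block did. Of the 9 genes 7 passed the filter on low counts, and 3 of these were called, 2 higher and 1 lower. Among all genes tested 13.6% were called, 6.83% as higher and 6.77% as lower, and nothing is read from the count because this comparison was known when the genes were chosen. The ranges of the 2 fractions did not overlap for the same 3 genes, as was so for 10.5% of all genes tested. With the tumour as a block the same 3 genes were called, in the same directions, against 28.2% of all genes.

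**Figure D1:**
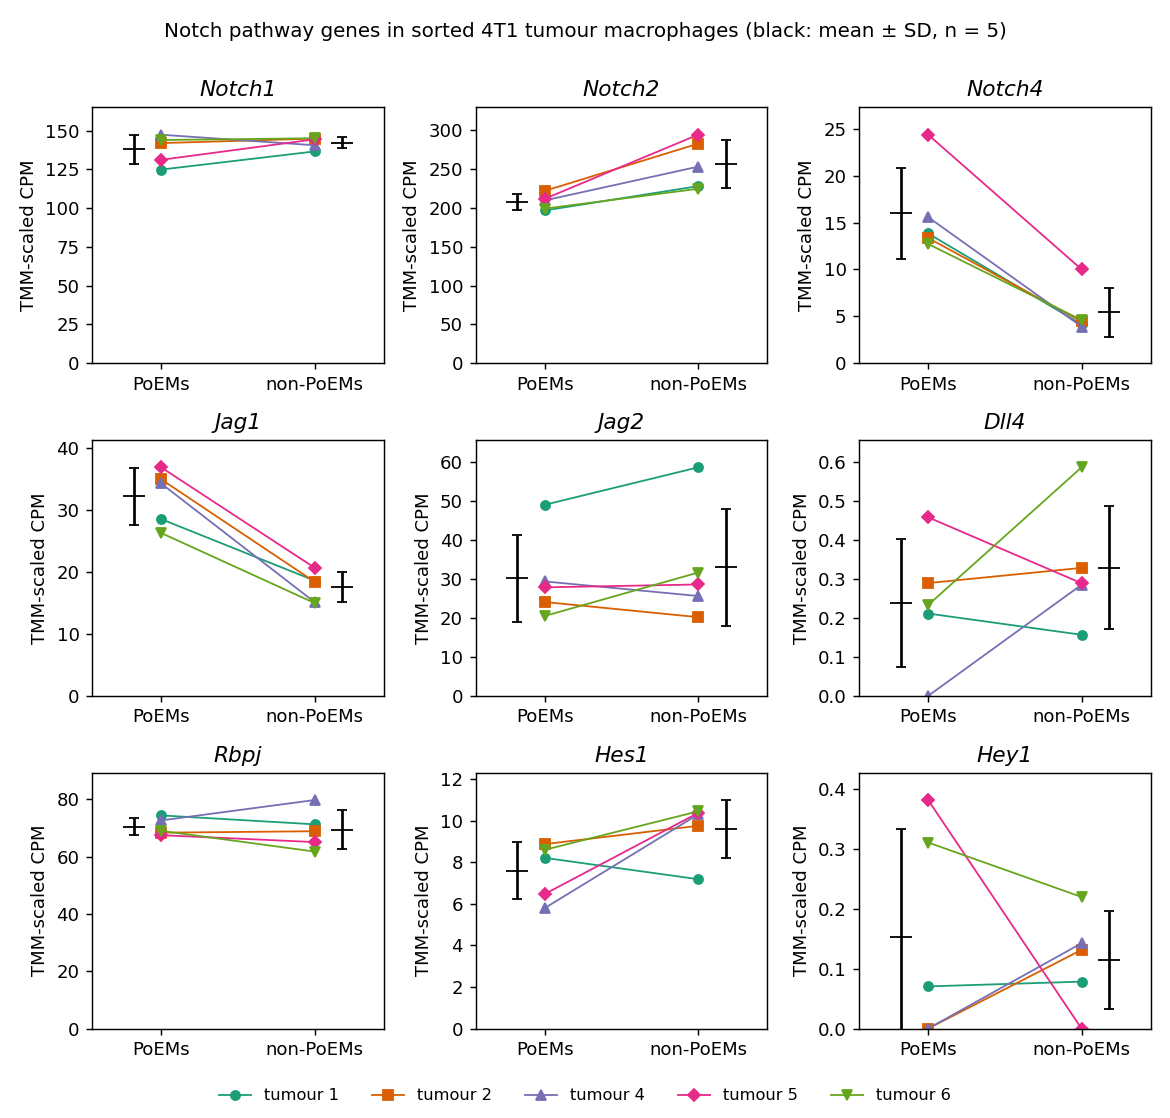
TMM-scaled CPM of the 9 genes in each library, PoEMs left and non-PoEMs right in every panel, with a line joining the libraries of a tumour and black bars for the mean ± SD of 5 libraries. Notch4 and Jag1 were higher in the PoEMs of all 5 tumours and Notch2 was lower, and each vertical axis starts at 0 with its own scale.

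Notch4, a receptor gene on chromosome 17 (34564268 to 34588503, plus strand, GRCm38), showed the largest fold change of the 7 tested genes. It measured 13.8, 13.4, 15.6, 24.4 and 12.7 CPM in PoEMs of tumours 1, 2, 4, 5 and 6, against 4.14, 4.46, 3.91, 10.02 and 4.61 CPM in non-PoEMs of the same tumours. Every PoEM library lay above every non-PoEM library, and tumour 5 was the highest in either fraction. The fitted log2 fold change was 1.56 ± 0.28 (SE), a level 2.94-fold higher in PoEMs (edgeR adjusted p = 0.00511, or 2.57e-07 with tumour as a block). Within tumours the log2 difference ran from 1.28 in tumour 5 to 1.98 in tumour 4. Without the PoEM library of tumour 5 the log2 fold change was 1.35 (edgeR adjusted p = 0.00722), and without the non-PoEM library of tumour 5 it was 1.896 (adjusted p = 0.000172). These are bulk libraries, so more cells that express a gene and more RNA per cell cannot be told apart.

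Notch2, the receptor gene with the most reads, was lower in PoEMs. It lies on chromosome 3 (98013527 to 98150361, plus strand). PoEMs had 196.8, 222, 209.7, 211.8 and 199.1 CPM in tumours 1, 2, 4, 5 and 6, and non-PoEMs had 228.1, 282.8, 253.2, 294.4 and 224.7 CPM. The highest PoEM library lay just under the lowest non-PoEM library, and non-PoEMs were spread more widely, with an SD of 10.2 CPM in PoEMs and 31.5 CPM in non-PoEMs. The fitted log2 fold change was -0.30 ± 0.08 (SE, edgeR adjusted p = 0.0259), with the lower value in PoEMs of 5 of 5 tumours. With tumour as a block the edgeR adjusted p was 0.000645. Without the block the call was lost when any of 5 libraries was left out. The adjusted p was then 0.0669 without PoEMs of tumour 1, 0.0565 without PoEMs of tumour 4, 0.0543 without PoEMs of tumour 6, 0.0715 without non-PoEMs of tumour 2 and 0.0585 without non-PoEMs of tumour 5.

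Notch1, on chromosome 2 (26457903 to 26516663, minus strand), is the receptor gene best studied in lymphocytes. It measured 124.9, 142, 147.4, 131.2 and 144 CPM in PoEMs of tumours 1, 2, 4, 5 and 6, against 136.6, 144.9, 140.6, 144.4 and 145.1 CPM in non-PoEMs. The fractions overlapped, and the log2 fold change of -0.05 ± 0.06 (SE) did not pass the test (edgeR adjusted p = 0.652). A non-coding transcript on the opposite strand shares 1068 bases with Notch1 exons, 7.5% of their length, and a second one shares 414 bases, 2.91%. Another transcript on the strand of Notch2 shares 541 bases, 5.02% of that gene's exons. The sources used here do not state whether counting used strand, so reads in these stretches cannot be assigned with certainty.

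Jag1 was the ligand gene that differed. Its product is a membrane-bound Notch ligand, and the gene lies on chromosome 2 (137081456 to 137116644, minus strand). PoEMs had 28.5, 34.95, 34.3, 36.9 and 26.3 CPM in tumours 1, 2, 4, 5 and 6, and non-PoEMs had 18.6, 18.4, 15.1, 20.7 and 14.99 CPM. All PoEM libraries lay above all non-PoEM libraries. Jag1 was 1.83-fold higher in PoEMs (log2 fold change 0.87 ± 0.12 SE, edgeR adjusted p = 0.000389, or 2.62e-06 with tumour as a block). The log2 difference within tumours ran from 0.62 in tumour 1 to 1.18 in tumour 4, and the adjusted p was 0.00196 at most under the 22 alternative settings.

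Jag2, which encodes the other Jagged ligand (chromosome 12, 112907819 to 112929776, minus strand), did not differ between the fractions by the test and varied widely among tumours. It measured 48.97, 24.05, 29.3, 27.8 and 20.5 CPM in PoEMs of tumours 1, 2, 4, 5 and 6, against 58.6, 20.2, 25.6, 28.6 and 31.6 CPM in non-PoEMs. Tumour 1 stood highest in either fraction, and the fractions overlapped. The log2 fold change of -0.12 ± 0.32 (SE) did not pass the test (edgeR adjusted p = 0.849), and 2 of 5 tumours had the higher value in PoEMs. Without the non-PoEM library of tumour 1 it was 0.19.

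Dll4, a delta-like ligand gene that endothelial tip cells express (chromosome 2, 119325784 to 119335962, plus strand), was near the limit of detection. It had 3, 4, 0, 6 and 3 reads in PoEMs of tumours 1, 2, 4, 5 and 6, against 2, 5, 4, 4 and 8 reads in non-PoEMs. The mean was 0.238 ± 0.164 CPM in PoEMs and 0.328 ± 0.157 CPM in non-PoEMs (SD, n = 5 each). The two-sided exact permutation test gave p = 0.421, or 0.982 when adjusted over 14 pathway genes below the filter. The library with no read, PoEMs of tumour 4, allows a level of up to 0.202 unscaled CPM, or 3 counts of its total. A transcript on the opposite strand shares 214 bases with Dll4 exons, 5.56% of their length, and strand use in counting is not stated.

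Rbpj, the common DNA-binding factor of the pathway (chromosome 5, 53466152 to 53657362, plus strand), was at nearly the same level in the fractions. PoEMs had 74.4, 68.4, 72.7, 67.5 and 69.01 CPM in tumours 1, 2, 4, 5 and 6, and non-PoEMs had 71.3, 68.9, 79.8, 65.1 and 61.8 CPM. The ranges overlapped, and the log2 fold change was 0.02 ± 0.07 (SE, edgeR adjusted p = 0.878). The annotation holds the processed pseudogenes Rbpj-ps1 and Rbpj-ps3, and the sources used here do not say how reads shared with them were counted.

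Hes1, which encodes a transcriptional repressor and is a direct Notch target (chromosome 16, 30064384 to 30067796, plus strand), did not pass the test. It measured 8.22, 8.88, 5.8, 6.48 and 8.61 CPM in PoEMs of tumours 1, 2, 4, 5 and 6, against 7.19, 9.77, 10.3, 10.4 and 10.5 CPM in non-PoEMs. PoEMs had the lower value in tumours 2, 4, 5 and 6 and the higher value in tumour 1, and the fractions overlapped. The log2 fold change was -0.34 ± 0.14 (SE), with an edgeR adjusted p of 0.139, or 0.0773 with tumour as a block. It passed the threshold when the non-PoEM library of tumour 1 was left out, at -0.43 (adjusted p = 0.0497).

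Hey1, a related repressor gene and Notch target (chromosome 3, 8663359 to 8667256, minus strand), had between 0 and 5 reads in each library. The counts were 1, 0, 0, 5 and 4 in PoEMs of tumours 1, 2, 4, 5 and 6, against 1, 2, 2, 0 and 3 in non-PoEMs. Its mean was 0.152 ± 0.181 CPM in PoEMs and 0.114 ± 0.0813 CPM in non-PoEMs (SD, n = 5 each). The same exact permutation test gave p = 0.651, or 1 when adjusted over the 14 genes.

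**Figure D2:**
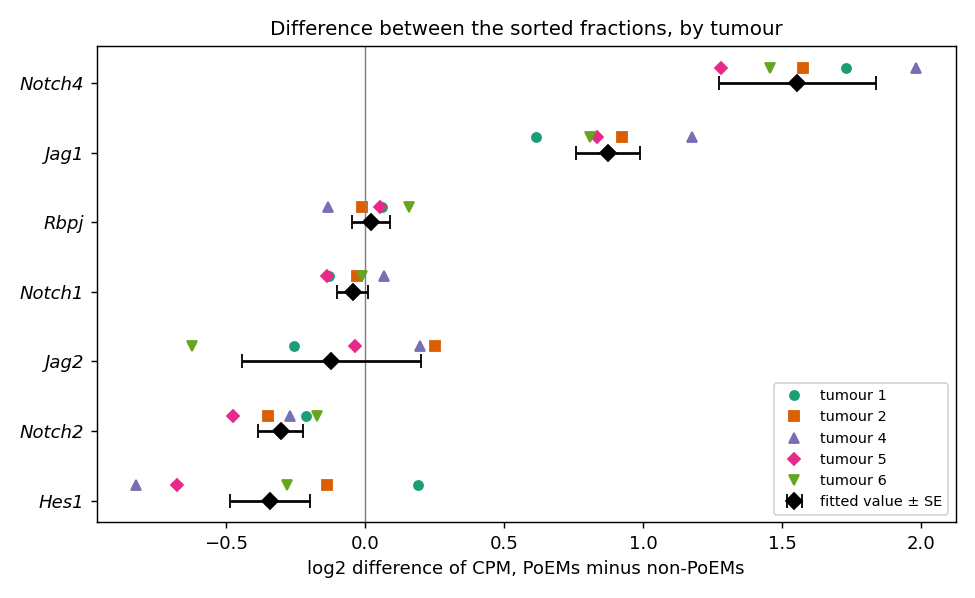
Log2 difference of CPM, PoEMs minus non-PoEMs, for the 7 genes that passed the filter. Coloured symbols are the 5 tumours and black diamonds the fitted log2 fold change ± SE. All 5 tumours lie right of 0 for Notch4 and Jag1 and left of 0 for Notch2.

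The tumour terms of a model that also held the fraction were used to test for differences between tumours. The read counts of these libraries were known when the genes were chosen, so these results are a description too. Of the 7 tested genes, Notch4 (edgeR adjusted p = 0.00219) and Jag2 (adjusted p = 0.0104) differed between tumours, against 13.7% of all 13595 genes. Either result rested on 1 tumour. Without tumour 5 the adjusted p for Notch4 was 0.953, and without tumour 1 that for Jag2 was 0.561. The adjusted p was 0.0843 for Notch2, and 0.0993 for Jag1, which reached 0.0346 without tumour 4. For Notch1, Rbpj and Hes1 the adjusted p was 0.4497, 0.209 and 0.6904.

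Levels were set against each other only per length, as CPM per kilobase of all annotated exons. In PoEMs the order was Notch2 (19.3 ± 0.947), Notch1 (9.69 ± 0.666), Jag1 (5.52 ± 0.778), Rbpj (5.52 ± 0.234), Jag2 (4.33 ± 1.59), Hes1 (3.73 ± 0.674), Notch4 (1.98 ± 0.598), Dll4 (0.0618 ± 0.0427) and Hey1 (0.0466 ± 0.0553), as mean ± SD of 5 libraries. In non-PoEMs it was Notch2 (23.8 ± 2.92), Notch1 (9.999 ± 0.2595), Rbpj (5.44 ± 0.538), Jag2 (4.72 ± 2.15), Hes1 (4.72 ± 0.6797), Jag1 (3.02 ± 0.421), Notch4 (0.673 ± 0.3203), Dll4 (0.0852 ± 0.0408) and Hey1 (0.03497 ± 0.0249). Neighbours in the order that differed by less than an SD were Jag1, Rbpj, Jag2 and Hes1 as well as Dll4 and Hey1 in PoEMs, and Rbpj, Jag2 and Hes1 in non-PoEMs. With the length of the transcript with the longest coding sequence, an alternative chosen after seeing the data, Rbpj stood at 12.9 ± 0.546 in PoEMs and 12.7 ± 1.26 in non-PoEMs, which in PoEMs moved it above Jag1. The order also turned for Jag2 (5.90 ± 2.17) over Jag1 (5.73 ± 0.808) in PoEMs and for Hes1 (6.55 ± 0.943) over Jag2 (6.44 ± 2.93) in non-PoEMs, pairs that differed by less than an SD.

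On the same length scale Notch4 made up 6.38% ± 1.79 of the summed level of the 3 receptor genes in PoEMs and 1.92% ± 0.738 in non-PoEMs (SD, n = 5 each). Notch2 made up 62.3% ± 1.29 in PoEMs and 68.9% ± 2.10 in non-PoEMs, so it remained the leading receptor gene in every library. Among the 3 ligand genes Jag1 took 56.6% ± 8.93 in PoEMs and 40.2% ± 9.30 in non-PoEMs, and Jag2 took 42.8% ± 9.09 in PoEMs and 58.6% ± 9.52 in non-PoEMs. Tumour 1 had the lowest Jag1 share of either fraction, 40.9% in PoEMs and 27.4% in non-PoEMs. With the other gene length Jag1 stood at 50.04% ± 8.87 in PoEMs and 34.2% ± 8.68 in non-PoEMs. These shares follow from the levels above and were not tested.

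**Figure D3:**
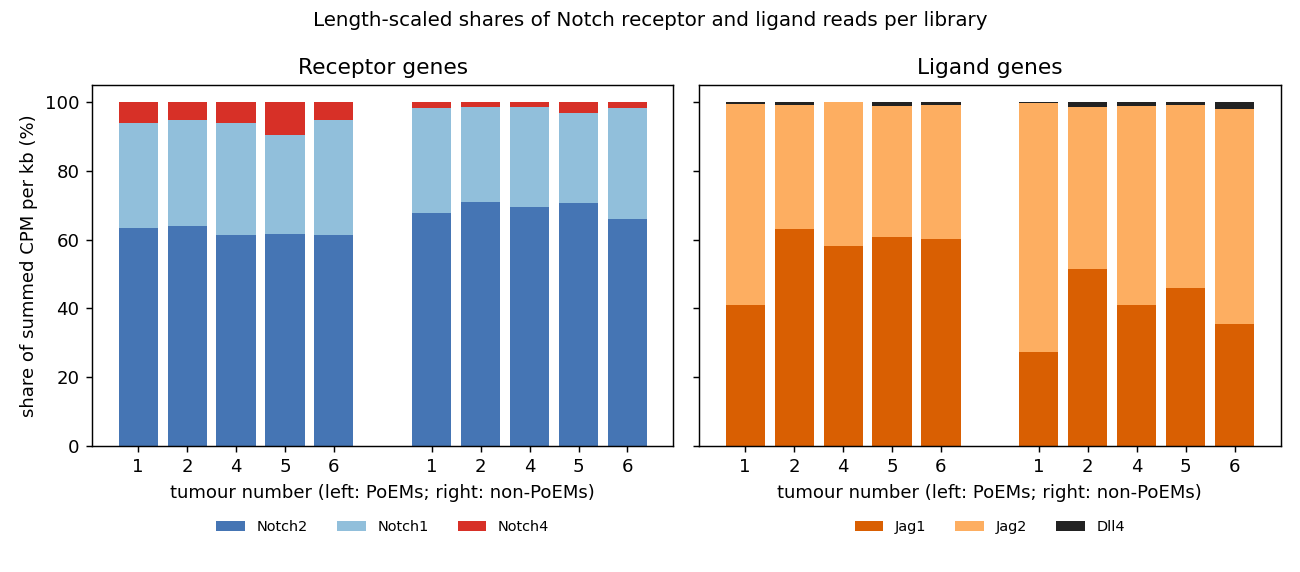
Share of the summed CPM per kilobase taken by each receptor gene (left) and each ligand gene (right) in every library, with the PoEMs of tumours 1, 2, 4, 5 and 6 left of the non-PoEMs. Notch4 took 9.49% in PoEMs and 3.21% in non-PoEMs of tumour 5, the highest of either fraction.

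For Notch4 and Jag1, the called genes with a fitted change of at least 1.5 times, the genes with the nearest pattern were sought among 10331 genes whose mean log2 CPM reached 1, predicted genes and pseudogenes left out. Likeness was the root mean square difference of log2 CPM over the 10 libraries, after each gene was centred on its own mean. The difference between the fractions was part of this match, so a like direction in the genes found follows from it. Nearest to Notch4 were Adam8 (0.29), Rusc2 (0.32) and Ak4 (0.35). Adam8, a membrane protease gene of leukocytes, measured 925.6 ± 173 CPM in PoEMs and 360.3 ± 70.96 CPM in non-PoEMs. Nearest to Jag1 were Raet1d (0.16), Aldoart1 (0.17) and Appl2 (0.17). Appl2, which encodes an endosomal adaptor, measured 149.4 ± 20.1 CPM in PoEMs and 88.7 ± 11.1 CPM in non-PoEMs. Raet1d and Aldoart1 have close copies in the genome, so their counts are uncertain.

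The rest of the pathway was described by a list of 68 other genes in 8 roles. Of these 55 passed the filter, and 3 were higher and 6 lower in PoEMs, against 6.83% and 6.77% of all genes tested. When tumour was a block, 5 were called higher and 11 lower, against 13.8% and 14.3% of all genes. The median log2 fold change was -0.05 over the list and 0.01 over all genes tested.

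Of 10 genes tested for the proteases that process Notch receptors, 2 were higher and 1 was lower in PoEMs, where 6.83% of all genes were higher and 6.77% lower. The other 7 did not pass, and the median log2 fold change of the 10 was 0.02. Furin, the convertase that cleaves receptors on the way to the surface, measured 653.6 ± 153 CPM in PoEMs and 438.6 ± 72.4 CPM in non-PoEMs (edgeR adjusted p = 0.0351, log2 fold change 0.58 ± 0.16 SE). Adam10, whose product makes the ligand-dependent cut, measured 353 ± 12.9 CPM in PoEMs and 294.3 ± 11.4 CPM in non-PoEMs, and the fractions did not overlap (adjusted p = 0.00686). Adam17, a related sheddase gene, was at 273.2 ± 13.1 CPM in PoEMs and 316.8 ± 21.6 CPM in non-PoEMs (adjusted p = 0.0402). With tumour as a block the edgeR adjusted p was 4.62e-06 for Furin, 0.001285 for Adam10 and 0.00418 for Adam17. In fits without the block the call for Furin was lost without PoEMs of tumour 4, 5 or 6 or non-PoEMs of tumour 1, 2 or 4 (adjusted p up to 0.0892), and with no filter on low counts (0.0903). That for Adam17 was lost without any PoEM library or the non-PoEMs of tumour 2, 4 or 5 (adjusted p up to 0.1004), with no filter (0.0641) and with scaling by library size alone (0.0565).

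Of 8 coactivator genes tested 3 were called, all lower in PoEMs, where 6.77% of all genes were lower. Their median log2 fold change was -0.17. When tumour was a block, 5 of the 8 were lower and 1 was higher, where 14.3% of all genes were lower and 13.8% higher. Maml1, a Mastermind gene, measured 70.3 ± 4.31 CPM in PoEMs and 86.02 ± 8.42 CPM in non-PoEMs (log2 fold change -0.29 ± 0.07 SE, adjusted p = 0.0184 by edgeR). Without PoEMs of tumour 4 the edgeR adjusted p was 0.0526, and with all libraries and tumour as a block it was 0.000901. Kat2b, a histone acetyltransferase gene, had 46.7 ± 2.34 CPM in PoEMs and 57.3 ± 5.07 CPM in non-PoEMs (edgeR adjusted p = 0.0119, or 0.0024 with tumour as a block). Crebbp, which encodes the acetyltransferase CBP, had 77.5 ± 2.35 CPM in PoEMs and 88.5 ± 6.32 CPM in non-PoEMs (adjusted p = 0.04497). In fits without a block its call was lost without any PoEM library or the non-PoEMs of tumour 1, 2 or 5 (adjusted p up to 0.114), with no filter (0.0874) and with scaling by library size alone (0.0573). With tumour as a block the edgeR adjusted p for Crebbp was 0.00877, and 0.0546 when both libraries of tumour 2 were left out. Maml2, named after its values were seen, was at 27.1 ± 2.07 CPM in PoEMs and 23.6 ± 1.32 CPM in non-PoEMs and did not pass the test (adjusted p = 0.0892). With tumour as a block it passed (0.0276), as did Maml3 (lower in PoEMs, 0.0221) and Ep300 (lower, 0.04701), also named after their values were seen.

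Among 13 corepressor genes 1 was lower, where 6.77% of all genes tested were lower. This was Tle4 of the Groucho family, at 52.7 ± 3.04 CPM in PoEMs and 62.3 ± 3.93 CPM in non-PoEMs (edgeR adjusted p = 0.0192, or 0.00194 with tumour as a block). With tumour as a block 2 corepressor genes were lower, Tle4 and Tle3 (edgeR adjusted p for Tle3 = 0.0044), where 14.3% of all genes were lower. Of 14 ubiquitin ligase and adaptor genes 1 was lower without the block, against the same 6.77% of all genes, and it had the lowest adjusted p of the list. This was Neurl3, a Neuralized-family E3 ligase gene, at 267.4, 297.4, 245.3, 241.2 and 241.2 CPM in PoEMs of tumours 1, 2, 4, 5 and 6, against 455.7, 439.4, 355.9, 390.6 and 382.2 CPM in non-PoEMs. All PoEM libraries lay below all non-PoEM libraries (log2 fold change -0.65 ± 0.08 SE, edgeR adjusted p = 0.000361, or 5.22e-07 with tumour as a block). With the block 2 of the 14 genes were lower and 1 was higher, where 14.3% of all genes were lower and 13.8% higher. Beside Neurl3 these were Dtx3l, lower (edgeR adjusted p = 0.000808), and Dtx4, higher (0.0265). Of 8 glycosyltransferase genes, whose products set ligand preference by modifying the receptor, none passed edgeR's test, 0 had an unadjusted p under 0.05 and 0 passed DESeq2. With the tumour as a block Lfng was lower (adjusted p = 0.0355), at 122.5 ± 12.6 CPM in PoEMs and 136.8 ± 13.4 CPM in non-PoEMs.

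Of 8 further genes listed as targets, HES and HEY family genes and Nrarp, 2 passed the filter. Whether they respond to Notch in these cells was not tested. Hes6, a HES family gene whose product in other settings counteracts HES1, was higher in PoEMs, at 30.4 ± 3.64 CPM against 23.3 ± 3.51 CPM in non-PoEMs (adjusted p = 0.0359 by edgeR, log2 fold change 0.38 ± 0.11 SE). With tumour as a block the edgeR adjusted p was 0.000424. Without the block the call was lost without PoEMs of tumour 1, 4 or 6 or non-PoEMs of tumour 2, 4 or 5 (adjusted p up to 0.0929). Nrarp, a feedback inhibitor gene named after its values were seen, was at 0.968 ± 0.188 CPM in PoEMs and 1.495 ± 0.651 CPM in non-PoEMs and did not pass (adjusted p = 0.229). The receptor gene Notch3 had 35 reads over all PoEM libraries and 31 over all non-PoEM libraries, and the ligand gene Dll1 had 12 over PoEM and 29 over non-PoEM libraries. Of the 14 genes below the filter with at least 1 read, Dll4 and Hey1 included, 0 had an unadjusted p under 0.05 in the exact permutation test, whose smallest possible p is 0.00794. The lowest p was 0.0556 (0.722 after adjustment), for Heyl, with 18 reads in PoEMs and 5 in non-PoEMs.

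**Figure D4:**
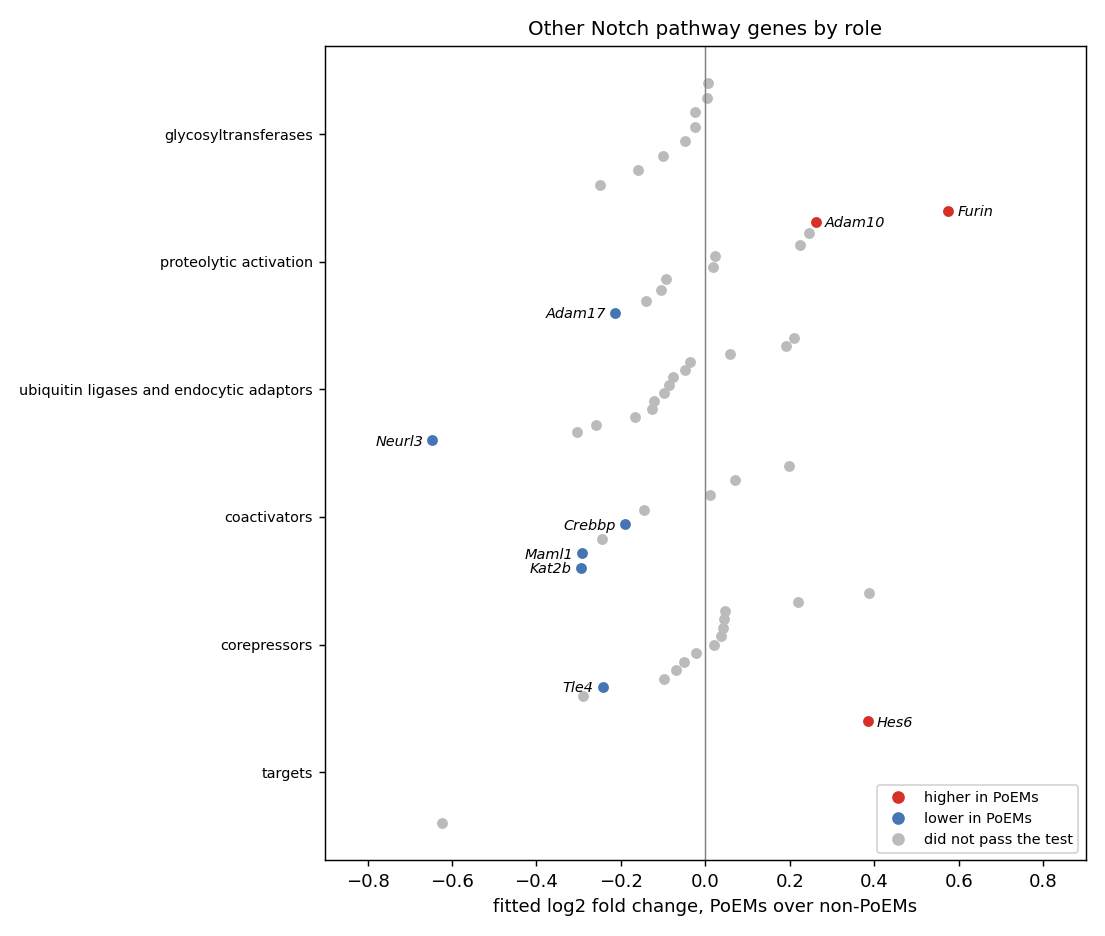
Fitted log2 fold change, PoEMs over non-PoEMs, of the 55 other pathway genes that passed the filter, by role. The 3 genes in red were higher and the 6 in blue lower in PoEMs, and those in grey did not pass the test.

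Markers of other cells moved with the sort, and their part in the differences above was not tested. For the counts of called markers here and in the next paragraph, 6.83% of all genes tested were higher and 6.77% lower. With tumour as a block these shares were 13.8% and 14.3%. Of 12 fibroblast markers other than Pdpn, 11 were higher in PoEMs, and their summed level ran from 293.8 to 480.7 CPM in PoEMs and from 26.6 to 40.1 CPM in non-PoEMs. Col1a1 measured 121.9 ± 23.0 CPM in PoEMs and 7.92 ± 2.296 CPM in non-PoEMs, Pdgfra 2.86 ± 0.621 CPM in PoEMs and 0.895 ± 0.3299 CPM in non-PoEMs, and Dcn 5.55 ± 2.35 CPM in PoEMs and 0.679 ± 0.282 CPM in non-PoEMs. Of 14 blood endothelial markers 5 passed the filter and 1, Vwf, was higher, at 3.76 ± 0.325 CPM in PoEMs and 2.28 ± 0.427 CPM in non-PoEMs (edgeR adjusted p = 0.0114). It was named after its values were seen, and no marker of the list was at 0 in every library. Their summed level ran from 107.1 to 282.7 CPM in PoEMs and from 91.1 to 207.5 CPM in non-PoEMs, mostly Pecam1, which myeloid cells also express. Cdh5, which marks endothelial junctions, was at 4.72 CPM in PoEMs and 5.04 CPM in non-PoEMs, and Kdr at 23.9 CPM in PoEMs and 29.6 CPM in non-PoEMs. Tie1 was at 4.77 CPM in PoEMs and 3.77 CPM in non-PoEMs. Neither Cdh5, Kdr, Tie1 nor Pecam1 passed the test, although Pecam1 did with tumour as a block (156 ± 72.6 CPM in PoEMs and 112 ± 43.4 CPM in non-PoEMs, edgeR adjusted p = 0.452, and 0.000147 with the block). Tek had 11 reads over all PoEM libraries and 1 over all non-PoEM libraries.

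In tumour 5, where Notch4 was highest in either fraction, the endothelial sum was the highest of the PoEM libraries (282.7 CPM) and second among the non-PoEM libraries (193.4 CPM). Tumour 6, where Notch4 was 12.7 CPM in PoEMs and 4.61 CPM in non-PoEMs, had sums of 263.8 CPM in PoEMs and 207.5 CPM in non-PoEMs. Monocyte markers summed to 456.6 to 681.9 CPM in PoEMs and 960 to 1506 CPM in non-PoEMs, with 2 of 6 lower, and 4 with tumour as a block. Neutrophil markers summed to 119.3 to 146.2 CPM in PoEMs and 238.1 to 332.8 CPM in non-PoEMs, with 6 of 7 tested lower and 1 higher. Eosinophil markers summed to 4.3 to 12.6 CPM in PoEMs and 57.2 to 141.3 CPM in non-PoEMs, with all 4 tested lower. Pericyte and smooth muscle markers summed to 13.8 to 19.6 CPM in PoEMs and 8.91 to 11.9 CPM in non-PoEMs, with 2 of 4 tested higher, Pdgfrb and Acta2. Rgs5 went the other way, at 0.578 CPM in PoEMs and 1.109 CPM in non-PoEMs. It did not pass edgeR's test (adjusted p = 0.0577) but was called lower with tumour as a block (0.0358). Cspg4 passed neither fit. Epithelial and 4T1 tumour cell markers summed to 98.9 to 263 CPM in PoEMs and 84.4 to 216 CPM in non-PoEMs, and 0 of 7 tested passed edgeR's test or DESeq2, while 2 had an unadjusted p under 0.05. With tumour as a block 3 passed edgeR's test, Cdh1 higher in PoEMs (adjusted p = 0.00683) and Epcam (0.0356) and Krt8 (0.0323) lower. Cdh1, the largest part of that sum, was at 124 ± 65.1 CPM in PoEMs and 75.9 ± 46.8 CPM in non-PoEMs. Dendritic cell markers summed to 18.2 to 57.98 CPM in PoEMs and 26.2 to 81.3 CPM in non-PoEMs, with Batf3 and Dpp4 lower of 5 tested. T and NK cell markers summed to 9.49 to 17.4 CPM in PoEMs and 16.01 to 43.4 CPM in non-PoEMs. The gene tested, Cd4, made up most of that sum and was lower (edgeR adjusted p = 0.00317). B and plasma cell markers summed to 1.75 to 17.04 CPM in PoEMs and 3.75 to 39.8 CPM in non-PoEMs, and the gene tested, Cd79b, was lower (edgeR adjusted p = 0.00224). Lymphatic endothelial markers summed to 107.3 to 237.5 CPM in PoEMs and 57.7 to 226.1 CPM in non-PoEMs, and 0 of 2 tested passed edgeR's test, the block, DESeq2 or an unadjusted p under 0.05. Nearly all of this sum was Lyve1, at 151.7 ± 60.3 CPM in PoEMs and 128.2 ± 79.6 CPM in non-PoEMs. Prox1 was at 0.217 CPM in PoEMs and 0.12 CPM in non-PoEMs. Pdgfrb, Acta2, Rgs5, Cspg4, Cdh1, Epcam, Krt8, Batf3, Dpp4, Cd4, Cd79b, Lyve1 and Prox1 were chosen after their values were seen.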

How the data were processed

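RNA was sequenced from sorted macrophages, and the authors deposited raw read counts per gene (whole numbers, not normalized) in a table for all samples. The submitters' processing notes name STAR 2.5.2b, featureCounts 1.5.3, cutadapt 1.15 and Bowtie2 2.3.3.1. The sources used here do not state the role of each tool, the genome build, strand use or the handling of multimapping reads. Rows without a gene held 0 counts.

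Counts were tested in R 4.3.3 with edgeR 4.0.16 (filterByExpr with a minimum count of 10 and a minimum total of 15, TMM, robust quasi-likelihood test of the fraction without a block, Benjamini-Hochberg adjusted p under 0.05 over 13595 genes). CPM was computed from the deposited counts and the TMM-scaled library sizes. Differences between tumours were tested with the tumour terms of a model that also held the fraction. Genes below the filter were compared with an exact permutation test over the 10 libraries (scipy 1.17.1). The tests were first run on simulated counts with known changes. Alternatives were the tumour as a replicate block, other scalings and filters, DESeq2 1.42.0 and leaving out each library. The tumour numbers in the labels paired the libraries. Deviations from the fraction means correlated between the PoEM and non-PoEM libraries of the same tumour (r = 0.226 to 0.481). Between PoEM and non-PoEM libraries of different tumours r was at most 0.0747. Centring each fraction on its own mean pushes these latter values down, so nothing is read from their size. No 2 libraries of a fraction agreed within sampling noise (chi-square per gene of at least 7.08 over 20 pairs). Whether tumours came from separate mice is not stated, so p-values measure the spread between these libraries. The limit from a count of 0 is 3 counts and covers counting error only.

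Gene positions and exon lengths came from GENCODE M21 (GRCm38) and served identification and length scaling only. Promoter windows came from RefSeq. The genes and lists were chosen with earlier results of these data known. Named were the 9 genes, up to 4 called genes of each role by lowest p, 3 genes of nearest pattern for each called gene with a change of at least 1.5 times, and fixed marker genes. Exceptions are stated as chosen after their values were seen. Notch3, Dll1, Heyl, Lfng, Tle3, Dtx3l and Dtx4 were also chosen that way.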

Additional observations from a re-analysis of the deposited data

Results flagged for a closer look

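Among 18 sets of 5 libraries, the 9 genes in either fraction, 3 held a library far from the others, where chance flags about 1 in 20 sets. A library was counted when its gap to the nearest other library exceeded 0.71 of the range. Notch4 was 24.4 CPM in PoEMs of tumour 5, against 15.6 CPM in the next PoEM library, a gap of 0.755 of the range. In non-PoEMs of tumour 5 it was 10.02 CPM, against 4.61 CPM in the next non-PoEM library, a gap of 0.886. Both libraries came from the same tumour. Hes1 was 7.19 CPM in non-PoEMs of tumour 1, below the next non-PoEM library at 9.77 CPM, a gap of 0.788.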

How the results depend on the processing

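Notch4 and Jag1 kept their call and direction under all 22 alternatives. With the tumour as a replicate block 16 other pathway genes were called, 5 higher and 11 lower, in place of 9, 3 and 6, and the calls of the 9 genes did not change. Among all genes tested 28.2% were called with the block, in place of 13.6%. No filter on low counts, which ended the calls of Furin, Adam17 and Crebbp, gave 6 other pathway genes called, 2 higher and 4 lower, and 4 of the 9 genes differing between tumours in place of 2. Scaling by library size gave 4 lower in place of 6, where 864 of all 13595 genes were lower in place of 920. DESeq2 with the replicate block gave 11 in place of 9, where 1198 of 16072 genes were higher and 1399 lower. When libraries or tumours were left out, between 2 and 4 of the 9 genes were called, 2 of them higher in each fit and 0 to 2 lower. Of the other pathway genes 4 to 9 were called without 1 library, 1 to 3 higher and 3 to 6 lower. With the block and without tumour 1, 2, 4, 5 or 6 in turn, 14, 10, 15, 13 and 18 were called, of which 10, 7, 12, 9 and 15 were lower and 3 or 4 higher. Between 1 and 3 of the 9 genes then differed between tumours. The share of all genes called is not given here for the fits with no filter or with libraries or tumours left out. Nothing is therefore read from their counts.

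Values near 0 changed sign. Without 1 library the log2 fold change of Jag2 ran from -0.37 to 0.19 (without non-PoEMs of tumour 1), and it was 0.0198 with the block and without tumour 6. That of Rbpj ran from -0.018 (without non-PoEMs of tumour 6) to 0.06995, was -0.0011 without non-PoEMs of tumour 5, and -0.0092 with the block and without tumour 6. That of Cdh5 ran from -0.25 to 0.015 (without non-PoEMs of tumour 6) and was 0.0021 without PoEMs of tumour 1. Hes1 passed at -0.47 with the block and without tumour 1 (edgeR adjusted p = 0.0227). The cause of these changes was not tested. Dll4 and Hey1 had 0 to 8 reads a library, too few to pass the filter.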
